A study of Homo sapiens with 8 samples.

Results

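The effect of IL-13 on breast cancer cells was measured over both hairpin constructs of the study at once, by setting the 4 arrays of IL-13-treated cells against the 4 arrays of mock-treated cells with construct as a covariate. These are all 8 arrays of the series, and they were chosen by the construct and the treatment named in the column headings. The cells were MIV-Luc, a form of MCF10CA1a made to express luciferase; MCF10CA1a is the metastatic member of the MCF10A series, a set of related human mammary epithelial lines. They had been transduced with a lentiviral pLKO vector carrying either a scrambled hairpin (shSCR) or hairpin number 2 against the IL-13 receptor IL13Rα2 (shIL13Rα2#2), selected with puromycin and used as pools of resistant cells. Cells of each construct received either a mock treatment or IL-13 at 20 ng/ml, the latter over 16 h, with 2 biological replicates per group and 1 array for each. All cells therefore carried luciferase and a hairpin, and the knockdown rested on a single hairpin in a single line. Within a group, A and B name the arrays by column order.

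IL-13 is a cytokine of T helper 2 cells. It binds IL13Rα1, which pairs with IL4Rα, and the kinases attached to these chains phosphorylate STAT6, a transcription factor that then enters the nucleus. IL13Rα2 binds IL-13 tightly and takes it up, and is described as a decoy. In airway, skin and oesophageal epithelium IL-13 is known to induce the eosinophil attractant CCL26, certain clade B serpins and mucin-related genes. The question put to these arrays was which genes IL-13 moved in the same way whether or not the decoy had been knocked down.

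The values are log2 expression levels per gene, on which a difference of 1 is a fold change of 2. Each of 29141 features, out of 33297 in the table with the control and spike-in features left out, was tested with limma. Calls required a p under 0.05 after Benjamini-Hochberg adjustment across these features and a fold change above 2. The median level of an array lay between 5.02 and 5.06, and Pearson's r across features was 0.992 to 0.993 within groups and 0.988 to 0.993 between groups. The mean level of 14 markers of the MCF10A series, keratins and adhesion genes of mammary epithelium, was 8.02 to 8.31 on the 8 arrays. That of 12 leukocyte markers was 4.31 to 4.50 and that of 12 endothelial and fibroblast markers 4.43 to 4.55, and no marker of the 3 lists passed the test.

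In the fit over both constructs together 18 genes rose with IL-13 and 7 fell. This fit gives 1 average effect per gene and does not test each construct alone. The rises were led by the neighbouring protease inhibitor genes SERPINB4 and SERPINB3, 18.1-fold and 11.9-fold, and all others were of 3.12-fold or less. They included the decoy receptor IL13RA2 itself, the chemokine CCL26, the PD-1 ligand PDCD1LG2, genes of the extracellular matrix and genes of ion and solute transport. The genes that fell were CASP14 and SCEL of cornifying epithelium, AGR2 and CEACAM6 of secretory epithelium, STC1, TMEM45A and C12orf36. The 25 genes, with 1 further feature that carries no symbol, were 0.0892% of all features tested, 0.0652% rising and 0.024% falling. At any fold change 85 genes passed the adjusted p, 59 rising and 26 falling. With 4 more features without a symbol and repeated features they were 0.323% of those tested, 0.22% rising and 0.103% falling. The gene lists below were written with earlier results of these data known. Counts of their members stand beside these shares and are not separate support. In all 25 called genes both IL-13 arrays lay on the same side of both mock arrays within each construct, which held for 9.91% of all features, and in 24 of them the 4 IL-13 arrays did not overlap the 4 mock arrays at all, against 4.78%. The called rises not described below were those of LRRC31 (1.14 ± 0.16), a protein of epithelial cells with leucine-rich repeats, SIDT1 (1.11 ± 0.17) and DNASE2B (1.04 ± 0.12), in log2 differences. DNASE2B was dim, at a mean level of 3.67, and 25% of features had a mean level under 3.70. CCL26 and SERPINB13, described below, also rose from dim mock arrays, with mean mock levels of 3.72 and 3.74. Among the 8 fits with 1 array left out SIDT1 was called in none (adjusted p 0.0600 to 0.145), LRRC31 in 1 and DNASE2B in 5. These counts describe genes chosen on the same values and are not separate support. Without array A of the mock-treated shIL13Rα2#2 cells 16 genes were called, and between 18 and 22 without each of the others.

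**Figure D1:**
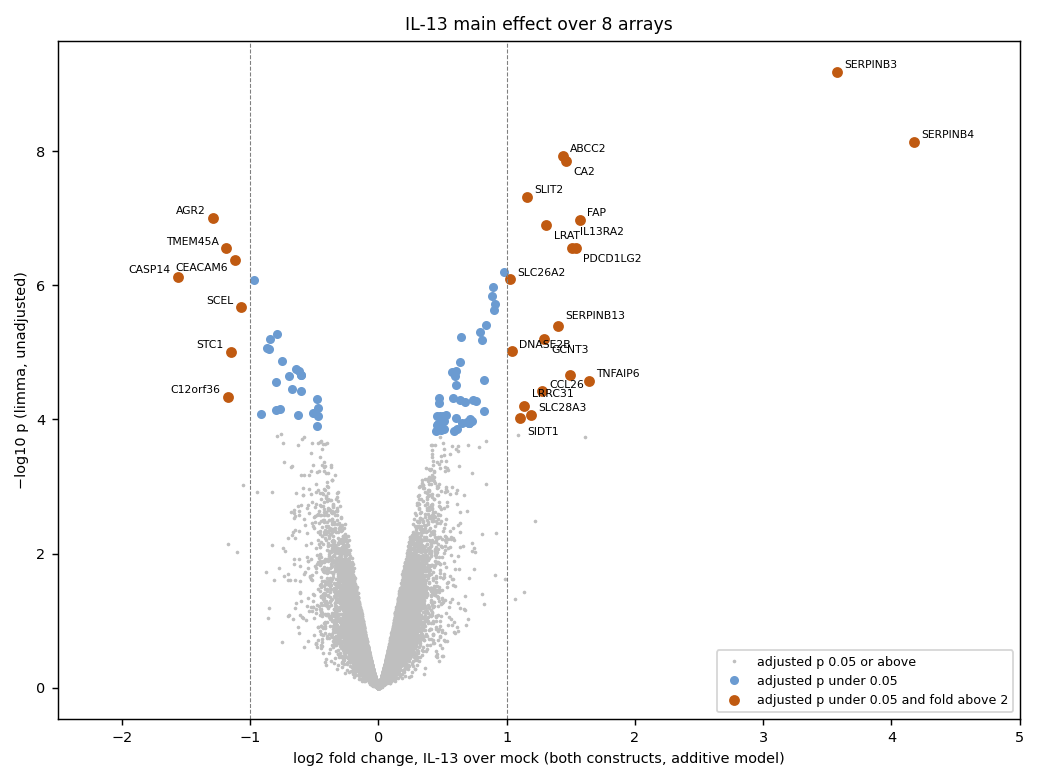
Each point is 1 of 29141 features, with the log2 difference between IL-13 and mock over both constructs on the x axis and the unadjusted −log10 p of limma on the y axis; dashed lines mark a fold change of 2. SERPINB3 and SERPINB4 lie far to the right of all other features, and the 7 called genes that fell lie between -1.56 and -1.07.

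The clade B serpins are intracellular inhibitors of proteases, many of them encoded side by side on chromosome 18. The log2 level of SERPINB4, which inhibits serine and cysteine proteases, was 4.97 and 4.47 on the mock-treated shSCR arrays, 9.36 and 9.38 on the IL-13-treated shSCR arrays, 5.70 and 5.74 on the mock-treated shIL13Rα2#2 arrays and 9.55 and 9.28 on the IL-13-treated shIL13Rα2#2 arrays. Every IL-13 array was above every mock array, and the mock arrays of the shIL13Rα2#2 cells were above those of the shSCR cells. The log2 difference was 4.17 ± 0.20 (standard error; 95% interval 3.72 to 4.62; adjusted p = 1.01e-04). SERPINB3, its near-identical neighbour and an inhibitor of cysteine proteases such as cathepsins, read 6.94 and 6.84 on the mock-treated shSCR arrays, 10.70 and 10.85 on the IL-13-treated shSCR arrays, 7.56 and 7.78 on the mock-treated shIL13Rα2#2 arrays and 10.93 and 10.97 on the IL-13-treated shIL13Rα2#2 arrays. Its arrays showed the same order, with a log2 difference of 3.58 ± 0.13 (95% interval 3.29 to 3.87; adjusted p = 1.90e-05), the smallest p of all genes. SERPINB13, the third member of this cluster to pass the test, had levels of 3.45 and 3.37 (mock) against 4.92 and 4.48 (IL-13) in shSCR cells and 4.12 and 4.01 against 5.85 and 5.31 in shIL13Rα2#2 cells. It rose by 1.40 ± 0.14 on the log2 scale (adjusted p = 0.00517), from mock arrays that already differed between the constructs. Of the 13 clade B serpins on the array these 3 rose and none fell, and the median log2 difference of the 13 was 0.16 against 0.0084 over all features. The other 10 did not pass, and lay between -0.24 (SERPINB1) and 0.32 (SERPINB7). SERPINB2, SERPINB5 and SERPINB11, also of chromosome 18, gave 0.034, -0.054 and -0.027.

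SERPINB3 and SERPINB4 are copies of each other, and the start of each gene shows how close they are. The 250 bases before the annotated transcription start, from RefSeq on GRCh38.p14, were identical at 247 positions (98.8%). Capitals mark the 3 positions that differ. Both genes lie on the minus strand, SERPINB3 with this stretch at chr18:63661894-63662143 and SERPINB4 at chr18:63644257-63644506.
SERPINB3: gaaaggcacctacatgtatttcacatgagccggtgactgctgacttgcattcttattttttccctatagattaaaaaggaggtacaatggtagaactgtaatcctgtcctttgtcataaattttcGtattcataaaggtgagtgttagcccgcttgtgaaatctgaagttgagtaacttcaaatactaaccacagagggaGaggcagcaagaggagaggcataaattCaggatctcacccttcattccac
SERPINB4: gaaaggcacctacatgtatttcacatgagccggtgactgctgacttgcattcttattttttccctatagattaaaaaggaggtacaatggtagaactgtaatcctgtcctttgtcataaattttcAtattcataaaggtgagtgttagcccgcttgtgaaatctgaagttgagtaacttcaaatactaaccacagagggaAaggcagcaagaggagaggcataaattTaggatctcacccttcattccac
With genes this alike, probes of one may take up transcripts of the other, so how the rise is divided between them is uncertain. The deposited table flags neither feature for cross-hybridization.

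**Figure D2:**
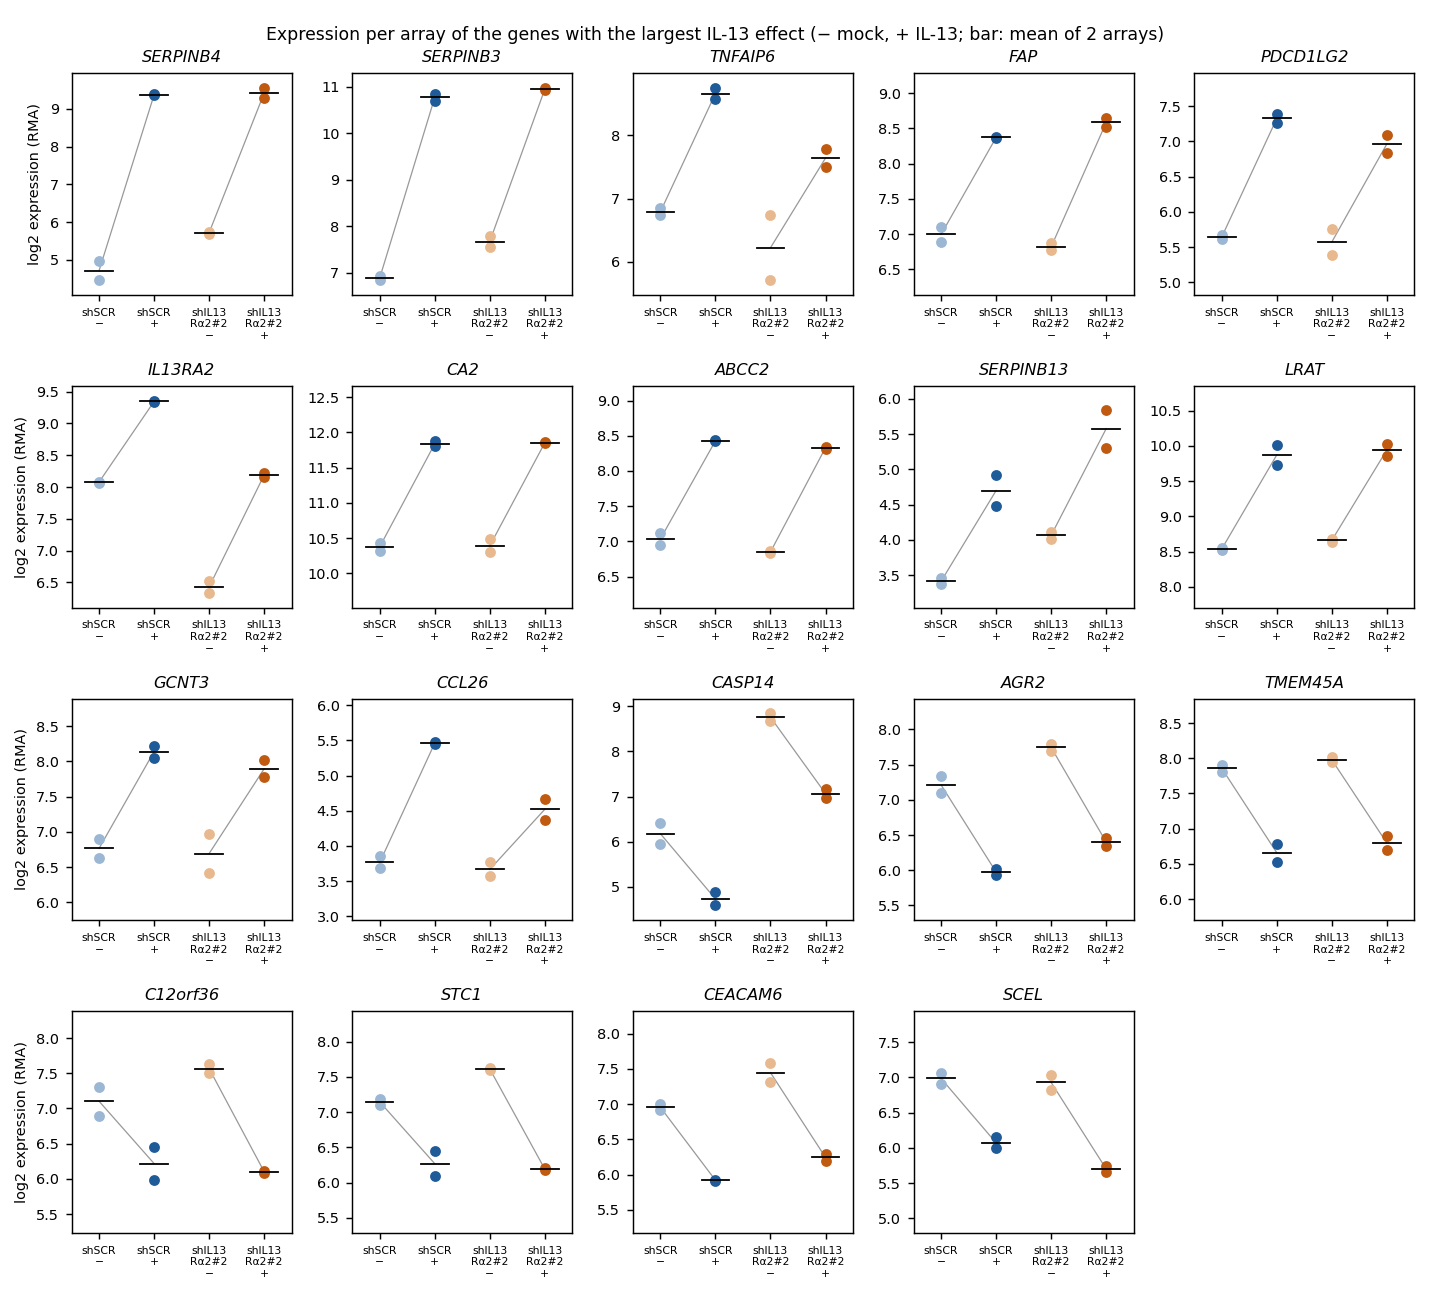
Log2 expression on each of the 8 arrays for the 12 called genes with the largest rise and the 7 that fell; points are arrays, black bars the mean of 2 arrays, and the y axis differs between panels. The lines between mock and IL-13 run the same way in both constructs in every panel, and the CASP14 panel alone has 4 IL-13 arrays that overlap the 4 mock arrays.

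Among the genes of the IL-13 receptor and its signaling chain only IL13RA2 passed the test. It is also the target of the hairpin, and its log2 level was 8.07 and 8.09 on the mock-treated shSCR arrays, 9.36 and 9.33 on the IL-13-treated shSCR arrays, 6.52 and 6.34 on the mock-treated shIL13Rα2#2 arrays and 8.23 and 8.15 on the IL-13-treated shIL13Rα2#2 arrays. The knockdown arrays lay below the shSCR arrays of the same treatment, with a log2 construct difference of -1.40 (adjusted p = 0.00128), and the IL-13 arrays lay above the mock arrays of the same construct. IL-13 raised it by 1.51 ± 0.11 (95% interval 1.26 to 1.76; adjusted p = 7.46e-04), so that IL-13-treated knockdown cells at 8.23 and 8.15 read slightly above mock-treated shSCR cells at 8.07 and 8.09. Without the construct term this gene was not called (adjusted p = 0.450). The other 19 of 20 genes did not pass, and the median log2 difference of the 20 was 0.017. IL13RA1, the signaling chain that binds IL-13, gave -0.21 ± 0.075 (95% interval -0.38 to -0.038), IL4R, its partner, -0.028 ± 0.088 (-0.23 to 0.17), and STAT6 -0.035 ± 0.079 (-0.21 to 0.14). The kinases JAK1, JAK2 and TYK2 gave 0.14, 0.11 and -0.047. Of the feedback inhibitors, CISH had the largest value, 0.21 ± 0.094 (adjusted p = 0.563), while SOCS1, SOCS2 and SOCS3 lay at 0.0035, -0.037 and -0.069. These are transcript levels after 16 h; phosphorylation and earlier times were not measured on these arrays.

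**Figure D3:**
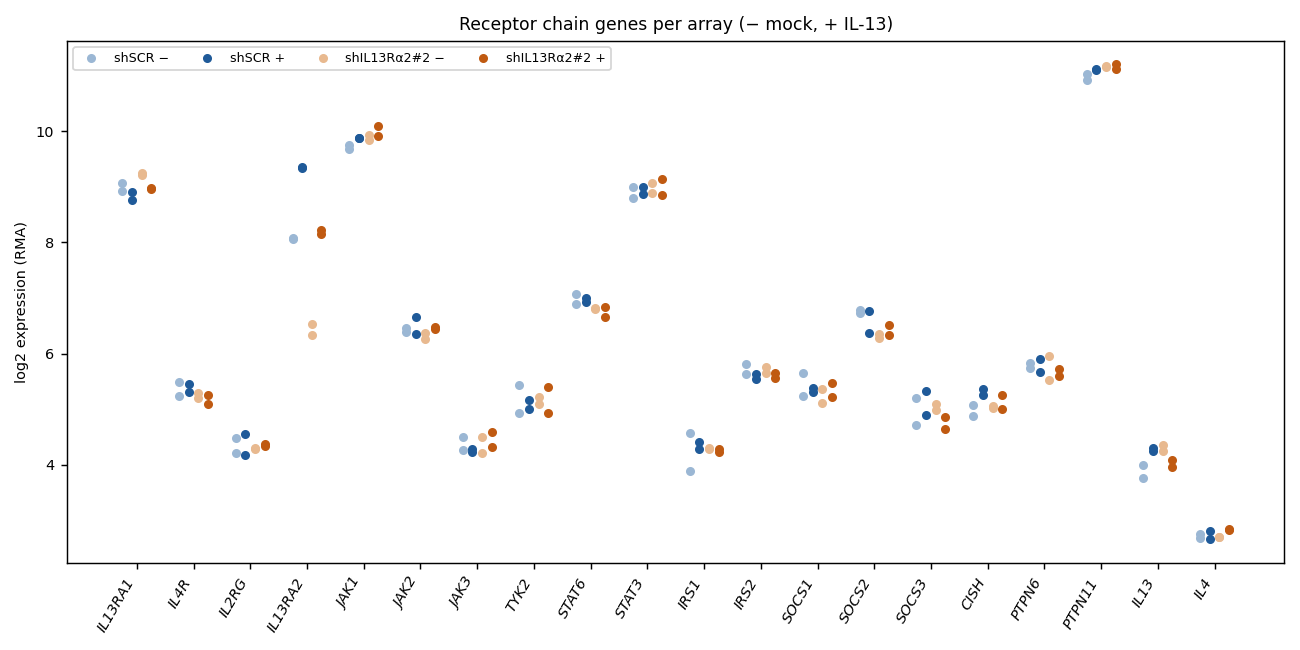
Log2 expression on each array of the 20 genes of the IL-13 and IL-4 receptor chain, with mock arrays in light and IL-13 arrays in dark colors, shSCR in blue and shIL13Rα2#2 in orange. IL13RA2 shows 4 separate groups, from 6.52 and 6.34 in mock-treated knockdown cells to 9.36 and 9.33 in IL-13-treated shSCR cells.

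A list of genes known as IL-13-induced in epithelia had 28 of 30 members on the array, of which 4 rose and none fell (median log2 difference 0.054). They were SERPINB4, SERPINB3, CCL26 and TNC. CCL26, or eotaxin-3, which draws eosinophils through the receptor CCR3, had log2 levels of 3.68 and 3.85 on the mock-treated shSCR arrays, 5.47 and 5.45 on the IL-13-treated shSCR arrays, 3.57 and 3.77 on the mock-treated shIL13Rα2#2 arrays and 4.37 and 4.67 on the IL-13-treated shIL13Rα2#2 arrays. All 4 IL-13 arrays were above all 4 mock arrays, and with IL-13 the shSCR arrays were above the knockdown arrays. The log2 difference was 1.27 ± 0.17 (adjusted p = 0.0218). The adjusted p stayed under 0.05 in 2 of 8 fits that left out 1 array, those without array B of the mock-treated or array A of the IL-13-treated knockdown cells, and reached 0.100 in the others. The related eotaxins CCL24 and CCL11 gave -0.20 and -0.055. The airway genes CLCA1, POSTN, ALOX15 and SPDEF lay at 0.089, -0.055, 0.038 and -0.021, and did not pass. The median level over the 28 genes of this list was 4.37, against 5.03 over all features. Whether the genes that did not pass were expressed was not tested.

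STAT6 targets known from immune cells had 18 members on the array, of which 2 rose (median 0.021). PDCD1LG2, which encodes the PD-1 ligand PD-L2, read 5.62 and 5.67 (mock) against 7.39 and 7.26 (IL-13) in shSCR cells and 5.75 and 5.39 against 7.09 and 6.84 in shIL13Rα2#2 cells. The groups did not overlap, and the log2 difference was 1.54 ± 0.11 (95% interval 1.28 to 1.79; adjusted p = 7.46e-04). PPARG, a nuclear receptor of lipid metabolism, rose by 0.48 ± 0.071 (adjusted p = 0.0355), under the fold of 2, and did not pass in any fit with 1 array left out (adjusted p 0.0938 to 0.143). CD36, a fatty acid receptor, gave 0.43 ± 0.17 (adjusted p = 0.497), and the macrophage chemokines CCL17, CCL18 and CCL22 gave -0.067, 0.025 and 0.017. The median level over the 18 genes was 4.77, against 5.03 over all features, and expression of the chemokines was not tested.

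Genes of the extracellular matrix and of stromal cells had 29 members on the array, of which 6 rose and 1 fell, with a median log2 difference of 0.079. TNFAIP6, a secreted protein that binds hyaluronan, had log2 levels of 6.85 and 6.74 on the mock-treated shSCR arrays, 8.57 and 8.75 on the IL-13-treated shSCR arrays, 5.71 and 6.74 on the mock-treated shIL13Rα2#2 arrays and 7.49 and 7.79 on the IL-13-treated shIL13Rα2#2 arrays. The IL-13 arrays were above all mock arrays, but the mock-treated knockdown arrays A and B differed by more than any other pair of this gene. The log2 difference was 1.64 ± 0.21 (95% interval 1.17 to 2.11; adjusted p = 0.0168). It passed in 2 of the 8 fits that left out 1 array, without array B of the mock-treated knockdown cells (adjusted p = 7.31e-04) and without array A of the IL-13-treated ones, and the adjusted p reached 0.0840 in the rest. FAP, a cell-surface protease best known from activated fibroblasts, read 6.89 and 7.10 (mock) against 8.38 and 8.36 (IL-13) in shSCR cells and 6.77 and 6.87 against 8.52 and 8.65 in shIL13Rα2#2 cells. No IL-13 array overlapped a mock array, and the log2 difference was 1.57 ± 0.10 (95% interval 1.34 to 1.80; adjusted p = 4.42e-04). SLIT2, a secreted guidance ligand of the ROBO receptors, gave 7.34 and 7.30 (mock) against 8.42 and 8.51 (IL-13) in shSCR cells and 7.39 and 7.49 against 8.59 and 8.64 in shIL13Rα2#2 cells, a log2 difference of 1.16 ± 0.069 (adjusted p = 2.77e-04). Under a fold of 2, the adhesion glycoprotein THBS1 rose by 0.67 ± 0.094, the hyaluronan receptor CD44 by 0.60 ± 0.074 and tenascin, TNC, by 0.58 ± 0.079, while the collagen-binding protein SPARC fell (-0.70 ± 0.087). In these 4 the adjusted p was 0.0268, 0.0151, 0.0257 and 0.0151, and none kept it under 0.05 in more than 1 of the 8 fits with an array left out. Collagens and metalloproteinases did not pass, COL1A1 at -0.069, COL3A1 at 0.079, MMP1 at 0.012 and MMP9 at 0.17. The 12 endothelial and fibroblast markers, read beside these genes, had mean levels of 4.50 to 4.55 on the mock arrays and 4.43 to 4.47 on the IL-13 arrays, lower with IL-13, and 0 of 12 passed.

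Genes of ion and solute transport had 25 members on the array, of which 4 rose, all by more than 2-fold, and none fell (median 0.033). The list was written with earlier results of these data known, so this count is not separate support. Of all features 0.22% rose at any fold and 0.0652% by more than 2-fold. CA2, a carbonic anhydrase that interconverts carbon dioxide and bicarbonate, had log2 levels of 10.32 and 10.43 (mock) against 11.80 and 11.88 (IL-13) in shSCR cells and 10.30 and 10.48 against 11.86 and 11.84 in shIL13Rα2#2 cells. The arrays of a treatment lay close together in both constructs, and CA2 rose by 1.46 ± 0.075 (95% interval 1.29 to 1.63; adjusted p = 1.01e-04). ABCC2, an exporter of drug and bilirubin conjugates, read 7.12 and 6.95 (mock) against 8.42 and 8.44 (IL-13) in shSCR cells and 6.87 and 6.83 against 8.35 and 8.31 in shIL13Rα2#2 cells, likewise with no overlap, a log2 difference of 1.44 ± 0.072 (adjusted p = 1.01e-04). The nucleoside carrier SLC28A3 rose by 1.19 ± 0.18 (adjusted p = 0.0355) and the sulfate transporter SLC26A2 by 1.03 ± 0.085 (adjusted p = 0.00155). SLC28A3 was not called in any fit with an array left out, and SLC26A2, whose fold is close to the threshold, was lost without array A of the mock-treated or array B of the IL-13-treated shSCR cells. Other members of the same families gave smaller values that did not pass, CA12 0.067, CA9 -0.24, ABCC1 0.084, ABCC3 -0.093, ABCC4 0.23 and SLC26A4 -0.034, and the chloride channel CFTR gave 0.093.

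Of 17 genes of retinoid and pyrimidine metabolism 2 rose (median 0.018). LRAT, which esterifies retinol for storage, had log2 levels of 8.55 and 8.52 (mock) against 9.73 and 10.02 (IL-13) in shSCR cells and 8.64 and 8.68 against 9.86 and 10.03 in shIL13Rα2#2 cells. The groups did not overlap and the log2 difference was 1.31 ± 0.087 (adjusted p = 4.57e-04). DPYD, the first enzyme of pyrimidine breakdown, rose by 0.91 ± 0.083 (adjusted p = 0.00287), which is 1.88-fold. The retinaldehyde dehydrogenase ALDH1A3 and the retinoic acid hydroxylase CYP26B1 gave 0.34 and -0.29 and did not pass.

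Secretory and mucin genes went both ways, with 1 rise and 2 falls among the 27 of 28 members on the array (median -0.021). GCNT3, an enzyme that branches the sugar chains of mucins, had log2 levels of 6.62 and 6.91 (mock) against 8.22 and 8.06 (IL-13) in shSCR cells and 6.41 and 6.97 against 8.02 and 7.77 in shIL13Rα2#2 cells, and rose by 1.29 ± 0.14 (adjusted p = 0.00653). AGR2, a disulfide isomerase of the endoplasmic reticulum needed for mucin assembly, read 7.09 and 7.33 on the mock-treated shSCR arrays, 6.01 and 5.93 on the IL-13-treated shSCR arrays, 7.79 and 7.70 on the mock-treated shIL13Rα2#2 arrays and 6.46 and 6.34 on the IL-13-treated shIL13Rα2#2 arrays. Every IL-13 array was below every mock array, and the knockdown arrays were above the shSCR arrays of the same treatment. AGR2 changed by -1.29 ± 0.083 (95% interval -1.48 to -1.10; adjusted p = 4.42e-04). The adhesion molecule CEACAM6 read 6.997 and 6.91 (mock) against 5.91 and 5.93 (IL-13) in shSCR cells and 7.32 and 7.58 against 6.19 and 6.29 in shIL13Rα2#2 cells, with no overlap between treatments, and changed by -1.12 ± 0.085 (adjusted p = 0.00103). Its relative CEACAM5 gave -0.79 ± 0.13 (adjusted p = 0.0539), just outside the threshold. The mucins MUC1, MUC4, MUC5B and MUC16 gave 0.23, -0.11, -0.12 and -0.026. AGR3, the paralog of AGR2, gave -0.063.

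Of 28 genes of the cornified envelope and skin barrier 2 fell and none rose, with a median log2 difference of -0.095. CASP14, a caspase of terminally differentiating keratinocytes, had log2 levels of 6.41 and 5.94 on the mock-treated shSCR arrays, 4.59 and 4.88 on the IL-13-treated shSCR arrays, 8.67 and 8.84 on the mock-treated shIL13Rα2#2 arrays and 7.17 and 6.96 on the IL-13-treated shIL13Rα2#2 arrays. The knockdown arrays were above the shSCR arrays of the same treatment, by 2.45 on the log2 scale (adjusted p = 2.32e-04), so that IL-13-treated knockdown cells stayed above mock-treated shSCR cells. Within each construct IL-13 lowered it, and the log2 difference was -1.56 ± 0.13 (95% interval -1.85 to -1.27; adjusted p = 0.00155). Without the construct term it was not called (adjusted p = 0.695). SCEL, sciellin, a precursor of the cornified envelope, read 6.90 and 7.07 (mock) against 6.15 and 5.99 (IL-13) in shSCR cells and 7.04 and 6.82 against 5.74 and 5.66 in shIL13Rα2#2 cells and changed by -1.07 ± 0.099 (adjusted p = 0.00311). Without array A of the mock-treated knockdown cells its log2 difference was -0.996 and its fold was under 2. SPRR1B gave -0.74 ± 0.12 (adjusted p = 0.0604). Involucrin (IVL), loricrin (LOR) and filaggrin (FLG) gave -0.24, 0.061 and 0.078. The median level over the 28 genes was 4.40, against 5.03 over all features, and whether these 3 were expressed was not tested.

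The remaining falls of more than 2-fold were TMEM45A, STC1 and C12orf36. TMEM45A, a membrane protein, had log2 levels of 7.91 and 7.80 (mock) against 6.78 and 6.53 (IL-13) in shSCR cells and 7.94 and 8.01 against 6.90 and 6.70 in shIL13Rα2#2 cells and changed by -1.19 ± 0.087 (adjusted p = 7.46e-04), with nearly equal values in both constructs. STC1, the secreted glycoprotein stanniocalcin, read 7.10 and 7.19 (mock) against 6.45 and 6.09 (IL-13) in shSCR cells and 7.60 and 7.63 against 6.20 and 6.18 in shIL13Rα2#2 cells, a log2 difference of -1.15 ± 0.13 (adjusted p = 0.00863). It lost its call without array B of the IL-13-treated shSCR cells or array A of the mock-treated knockdown cells, where the adjusted p was 0.0512 and 0.0554. C12orf36, now named LINC01559, a long non-coding RNA gene, changed by -1.17 ± 0.16 (adjusted p = 0.0257), and it passed only without array B of the mock-treated or array B of the IL-13-treated shSCR cells among the fits with 1 array left out. STC1 was in a list of 21 hypoxia and glycolysis genes, of which 2 fell and none rose (median -0.075). The other was the mitophagy gene BNIP3 at -0.47 ± 0.069 (adjusted p = 0.0355), which did not pass in any fit with 1 array left out (adjusted p 0.107 to 0.139) and whose other feature gave -0.15 and did not pass. The glycolytic enzymes LDHA, ENO1 and PGK1 lay at -0.0063, 0.023 and -0.090, and EGLN3 at 0.84 ± 0.17 (adjusted p = 0.138). Of the 21 genes 18 lay below 0 and 3 above, with ENO1 and EGLN3 among the 3. In limma 9 of the 21 had an unadjusted p under 0.05, where 9.01% of all features had such a p. The list was written with earlier results of these data known, so these counts are not separate support.

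In the other lists few genes or none passed. The interferon-stimulated genes had 1 rise in 22 (median 0.074), IFIT3, which dampens the translation of viral RNA together with related proteins, at 0.84 ± 0.084 (adjusted p = 0.00517). IFIT1, ISG15 and MX1 gave 0.077, -0.23 and 0.24. None passed among 22 inflammatory cytokines and chemokines (median 0.052), 21 cell cycle genes (median -0.042), 19 genes of epithelial-mesenchymal transition (median 0.024), 21 stress genes (median 0.00055) and 23 basal epithelial and p63-associated genes (median -0.039). At an unadjusted p under 0.05 these 5 lists held 5, 0, 2, 4 and 8 genes, where 9.01% of all features had such a p. The proliferation marker MKI67 lay at 0.015 and the replication gene PCNA at -0.11, E-cadherin (CDH1) at -0.13 and vimentin (VIM) at -0.26. The basal keratins KRT5 and KRT14 gave -0.29 and -0.18.

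**Figure D4:**
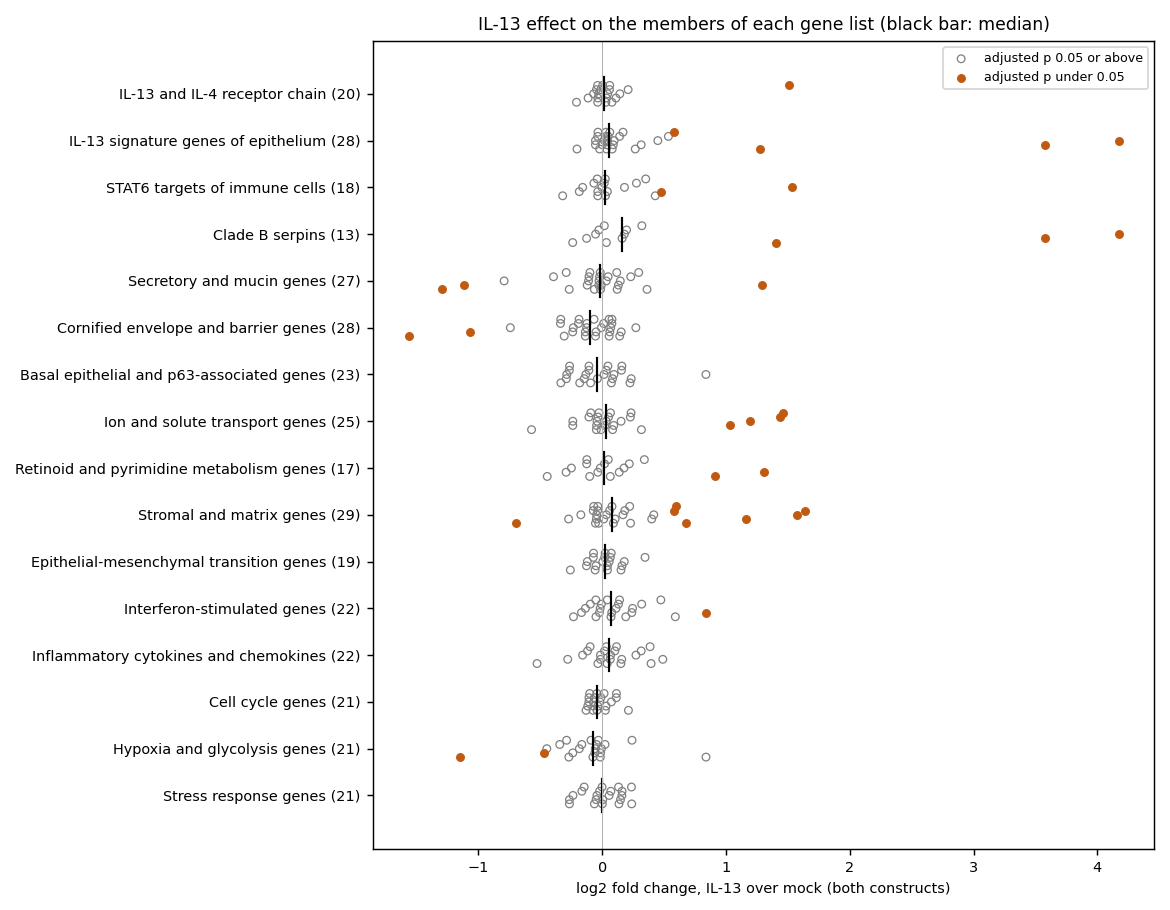
Log2 difference between IL-13 and mock for the members of 16 gene lists, with the number on the array in brackets; filled points passed an adjusted p of 0.05 and bars are list medians. The list medians lie between -0.095 and 0.16, and no list has more than 7 members that passed.

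Of 11 genes that the study names for this experiment 5 rose, a list chosen on these samples and so no independent evidence of direction. They were SERPINB4, SERPINB3, IL13RA2, SERPINB13 and CFI, the protease that inactivates complement C3b, at 0.82 ± 0.12 (adjusted p = 0.0332). CFI passed in 1 of the 8 fits with an array left out (adjusted p 0.0390 to 0.132). TP63, a transcription factor of basal epithelium, read 5.06 and 4.87 on the mock-treated shSCR arrays, 6.11 and 5.999 on the IL-13-treated shSCR arrays, 6.11 and 6.20 on the mock-treated shIL13Rα2#2 arrays and 6.98 and 6.50 on the IL-13-treated shIL13Rα2#2 arrays. Both IL-13 arrays were above both mock arrays within each construct, but the mock-treated knockdown arrays were level with or above the IL-13-treated shSCR arrays. The log2 difference was 0.84 ± 0.14 (95% interval 0.52 to 1.15), with an adjusted p of 0.0594 that misses the threshold, and a construct difference of 0.94 (adjusted p = 0.0236) stood beside it. Without array B of the IL-13-treated knockdown cells its adjusted p was 0.0146, and without each of the others it did not pass (highest 0.198). On all 8 arrays TP63 passed in 3 of 9 alternatives, with 4 group means (0.0463), without the dimmest 30% of features (0.0337) and with an intensity trend and robust prior (0.00789), and in the others its adjusted p reached 0.721. GPX2, a glutathione peroxidase, gave -0.60 ± 0.12 (adjusted p = 0.116), the chemokine CXCL17 -0.28 ± 0.13 and the elongation factor partner MLLT3 -0.17 ± 0.085, and these did not pass. In all 3 of these genes the construct difference was larger in size, 1.79, -1.23 and 1.34.

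The additive fit takes 1 IL-13 effect for both constructs, and the effects in each construct were also fitted. The differences of the constructs come from separate arrays. Both were taken from the fit of 4 group means over all arrays, so their tests share 1 variance estimate per feature. Calls made in both constructs are therefore not independent replication. Fitted on its own arrays alone, each construct called far fewer genes, as given with the processing below. With a median standard error of 0.14 on the log2 scale for 1 construct and 0.10 for both, 16 genes were called in shSCR cells (0.0583% of features), 18 in knockdown cells (0.0618%) and 25 over both. Of the 25, 12 were also called in each construct, and 7 were called in neither alone, namely DNASE2B, C12orf36, GCNT3, SERPINB13, TNFAIP6, LRRC31 and SLC28A3. Conversely DPYD was called in shSCR cells (1.06), and SLITRK6 (-1.03), EGLN3 (1.29) and RXFP1 (-1.12) in knockdown cells, but not over both. SERPINB4 differed by 4.65 in shSCR cells and 3.69 in knockdown cells, and CA2 by 1.46 in each. The size of the response was larger in knockdown cells for 14 of the 25 genes and larger in shSCR cells for 11. The additive fit counts a difference between constructs as spread, so the genes it calls were selected for like responses. Over all features the effects in the constructs correlated with Pearson's r = 0.21 and Spearman's rho = 0.15 (n = 29141 features, which share the arrays of each construct).

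**Figure D5:**
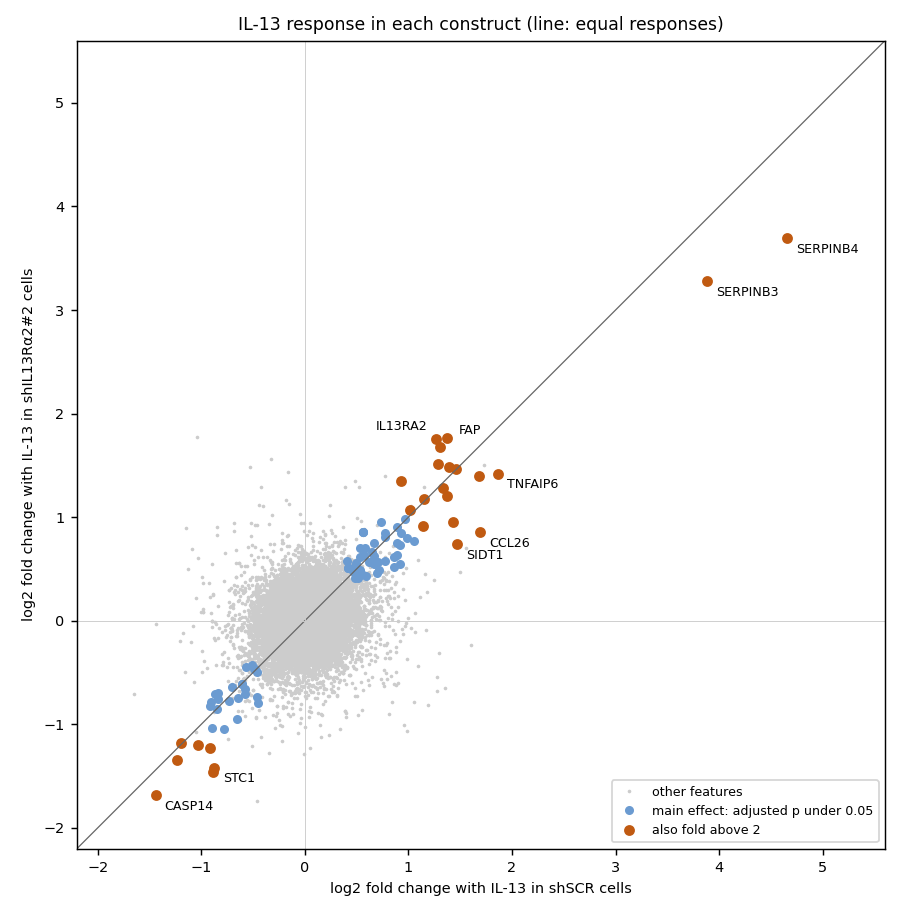
Each point is a feature, with its log2 difference between IL-13 and mock in shSCR cells on the x axis and in shIL13Rα2#2 cells on the y axis; filled points passed the test over both constructs and the diagonal marks equal effects. SERPINB4 and SERPINB3 lie below the diagonal and IL13RA2 above it, and all filled points lie in the quadrants where both constructs moved the same way.

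Whether the IL-13 effect differed between constructs was tested with the interaction term. No feature passed (0% called; smallest adjusted p 0.624), and 1304 features, or 4.47%, had an unadjusted p under 0.05. Of the 25 called genes 7 were among these. CCL26 rose by 1.69 in shSCR cells and 0.85 in knockdown cells, a difference of -0.84 (95% interval -1.30 to -0.38; adjusted p = 0.989). For SERPINB4 this difference was -0.96, for SIDT1, a membrane protein of the double-stranded RNA transporter family, -0.73, and for SERPINB3 -0.60. For STC1 it was -0.55, a larger fall in knockdown cells, for FAP 0.39 and for IL13RA2 0.49 (95% interval 0.13 to 0.85). With an adjusted p of 0.989 for each of these 7 genes, neither a difference nor its absence was shown. The 5 genes with the smallest interaction p were not among the called ones. They were RXFP1, a relaxin receptor, at 0.15 in shSCR and -1.12 in knockdown cells, LOC91316 at -0.30 and 0.74, LOC100130876 at -0.60 and 0.33, the zinc finger gene ZNF778 at 0.92 and -0.20, and FLJ44838 at -0.41 and 1.11. RXFP1 and FLJ44838 were dim, at mean levels of 3.52 and 3.14, and 25% of features had a mean level under 3.70. ZNF778 and LOC91316 each had another feature, at 0.036 and -0.12 over both constructs.

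Among 205 microRNA gene features on the array 1 passed, MIR21, and of all features tested 0.323% passed. MIR21 had a log2 difference of 0.64 ± 0.088 (adjusted p = 0.0261) and was named after its values were seen. It passed in 1 of the 8 fits with 1 array left out. Its levels were 7.62 and 7.39 (mock) against 8.16 and 8.01 (IL-13) in shSCR cells and 7.05 and 7.20 against 7.75 and 7.89 in shIL13Rα2#2 cells, without overlap of the treatments within a construct. The feature reports transcripts of the gene and not the mature microRNA. The mature strand is given with its seed, bases 2 to 8, in capitals, from RefSeq on GRCh38.p14 (chr17:59841273-59841294, plus strand).
hsa-miR-21-5p: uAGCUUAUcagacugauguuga

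STAT proteins bind palindromes of TTC and GAA, with 4 bases between for sites that STAT6 is known to prefer and 3 for those of other STATs. Promoter windows of 300 bases, from 250 before to 50 after the start, were at hand for 13 of the 18 called genes that rose and 5 of the 7 that fell. TTC and GAA with any 4 bases between were found in 1 of the 13 and 1 of the 5, against 6.44% of all 35116 windows, and with any 3 bases between in none, against 7.66%. Both patterns read the same on either strand, and neither can overlap the other on the same TTC and GAA. With 59 rising genes at any fold the counts were 4 and 2 of the 48 with a window. The matches in called genes, with the motif in capitals and 10 bases on each side, were in the promoter of DNASE2B, an acid endonuclease that rose by 1.04 ± 0.12, at chr1:84398308-84398337 on the plus strand, and of CEACAM6 at chr19:41755366-41755395 on the plus strand (GRCh38.p14, RefSeq).
DNASE2B: ttccctatttTTCTGCAGAActttttgatg
CEACAM6: tcagagcatcTTCTGGGGAActgaatataa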

How the data were processed

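RNA of MIV-Luc cells carrying shSCR or shIL13Rα2#2, with mock treatment or IL-13, was read on 8 Affymetrix arrays. The authors deposited log2 values per gene-level feature, made with RMA in Affymetrix Expression Console (version 1, per the submitters' processing notes). RMA is a method of background correction, quantile normalization and probe summary. The labels name the Human Exon 1.0 ST array, and whether the 33297 features of the table match that array was not checked. RMA compresses changes of dim features, and no further normalization was applied. Columns were placed in groups by their headings, and 4156 features for controls and spike-ins were dropped.

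The other 29141 features were fitted in limma 3.58.1 (R 4.3.3) with construct and treatment as additive terms over all 8 arrays (5 residual and 3.86 prior degrees of freedom), and with 4 group means for the effects within constructs and the interaction (4 and 3.86). P-values were adjusted by Benjamini-Hochberg over all features, and intervals are 95%. Of 20193 distinct symbols 17206 were current and 2331 older in RefSeq; 7064 features carried no symbol, 66 listed more than 1 gene and took the first of them, and 38 had symbols turned into calendar entries.

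Genes were named by rule: the called genes with the 12 largest rises and 12 largest falls (all 7), the receptor chain, the genes the study names, list members with an adjusted p under 0.05, and the 5 genes with the smallest interaction p, with 1 feature per gene, that with the smallest p. List members that did not pass, LRRC31, SIDT1, DNASE2B, MIR21 and the other genes of the closing section were named after their values were seen. The comparison and the gene lists, written from general knowledge, were chosen with earlier results of these data known. The procedure was tested on simulated data. Alternatives were other tests, models, thresholds, filters and normalizations, leaving out each array, and each construct alone.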

Additional observations from a re-analysis of the deposited data

Results flagged for a closer look

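Among 63 of the named genes, in 3 (4.76%) both IL-13 arrays of one construct moved one way from the mock arrays and both of the other construct the opposite way. Over all features this held for 1371 of 29141 (4.7%), a share close to that of these genes, and LOC100130876 and LOC91316 had been named for a small interaction p. For LOC100130876 the IL-13 effect was -0.60 in shSCR cells and 0.33 in knockdown cells, a difference of 0.94 on the log2 scale. For LOC91316 the effects were -0.30 and 0.74, a difference of 1.04, and its other feature is named with the interaction above. For IL13, the gene of the cytokine itself, the levels were 3.76 and 3.99 (mock) against 4.29 and 4.24 (IL-13) in shSCR cells and 4.25 and 4.35 against 3.96 and 4.09 in shIL13Rα2#2 cells, and the effects of 0.39 and -0.27 differed by -0.66. IL13 and LOC100130876 had low mean levels, 4.12 and 4.10 against a median of 5.03 over all features, and whether they were expressed was not tested. In the limma interaction test, adjusted over all 29141 features, the adjusted p of each of the 3 was 0.989, so a difference between constructs was not shown. The smallest adjusted p of any feature was 0.624. The groups of 2 arrays were too small for a test of single outlying arrays.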

How the results depend on the processing

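Against 25 genes called, an analysis of variance with construct and treatment gave 13 adjusted and 26 unadjusted, and a one-way analysis of variance of all 8 arrays with construct left out, a pooling that the methods do not describe, 8 adjusted and 25 unadjusted. Limma without the construct term called 19, losing IL13RA2, CASP14, SERPINB13, CCL26, TNFAIP6, LRRC31 and SLC26A2. A fold change above 1.5 gave 67, no fold threshold 85, and a limma test against a fold change of 1.5 gave 11. Without adjustment, with 4 group means or with an intensity trend and robust prior 26 were called, and 25 without the dimmest 30% of features, after a shift to one median, after a further quantile normalization or with 1 feature per gene. Leaving out the dimmest 30% removed DNASE2B from the test, so the 25 called there were not all the same genes. Leaving out 1 array gave 16 to 22, the lowest without array A of the mock-treated knockdown cells. In all 8 such fits 15 of the 25 were called. SIDT1 and SLC28A3 were called in none of the 8, LRRC31 in 1, TNFAIP6, CCL26 and C12orf36 in 2 each, DNASE2B in 5, SLC26A2 and STC1 in 6 each and SCEL in 7. Of the 60 genes that passed the adjusted p at less than 2-fold, 13 passed in all 8 fits and 25 in none. Each construct alone, with 4 arrays and its own prior, gave 2. No called gene changed sign in these settings. The interaction gave 0 features throughout and 1304 without adjustment. No paired analysis was possible because column headings number the arrays from 1 to 8 and do not hold the replicate numbers of the labels.

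Signs turned only among genes that did not pass, and the cause was not tested. After the shift to one median SOCS1 gave -0.00273. In shSCR arrays alone the log2 differences that turned were IL4R 0.010, SOCS1 -0.097, SOCS3 0.15, PTPN6 0.0013, RXFP1 0.15, LOC91316 -0.30 and FLJ44838 -0.41, and in knockdown arrays alone JAK3 0.10, TYK2 0.0075, IRS1 -0.046, SOCS2 0.11, PTPN11 -0.0047, IL13 -0.27, LOC100130876 0.33 and ZNF778 -0.20. With 1 array left out the ranges that crossed 0 were IL4R -0.088 to 0.017, IL2RG -0.025 to 0.12, IRS1 -0.12 to 0.16, SOCS1 -0.066 to 0.11, IL13 -0.050 to 0.15, JAK3 -0.093 to 0.060, TYK2 -0.15 to 0.065, STAT3 -0.028 to 0.092, SOCS2 -0.10 to 0.072, PTPN6 -0.11 to 0.055, STAT6 -0.076 to 0.0061 and SOCS3 -0.21 to 0.017. The number of arrays, 2 per group, limits what could be called: the median standard error of a difference was 0.10, and no detection call for dim features was used here.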

Other observations

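Of the 60 genes that passed the adjusted p at less than 2-fold, 41 rising and 19 falling, most belong to no list, and those named here were chosen after their values were seen. Among the rises, the secreted guidance protein SEMA3A had a log2 difference of 0.98 ± 0.078 (adjusted p = 0.00143), at levels of 7.08 and 7.10 (mock) against 7.94 and 8.17 (IL-13) in shSCR cells and 6.80 and 6.90 against 7.79 and 7.88 in shIL13Rα2#2 cells. The focal adhesion protein TNS4 rose by 0.90 ± 0.084 and the kinase TNIK, a partner of Wnt signaling, by 0.88 ± 0.078. The interleukin-7 receptor chain IL7R, shared with the receptor for TSLP, rose by 0.79 ± 0.081 (adjusted p = 0.00608) and the antiproliferative gene BTG1 by 0.81 ± 0.086 (adjusted p = 0.00663). The EGF receptor ligand HBEGF rose by 0.64 ± 0.074. PARP14, a poly-ADP-ribose polymerase family member known as a cofactor of STAT6, rose by 0.61 ± 0.078 (adjusted p = 0.0184), with levels of 8.24 and 8.11 (mock) against 8.75 and 8.92 (IL-13) in shSCR cells and 8.31 and 8.36 against 8.92 and 8.84 in shIL13Rα2#2 cells. The antigen-processing genes ERAP2 and PSMB9 rose by 0.73 and 0.71, the latter read from 3 features with identical values.

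Among the falls, SLITRK6, a neuronal adhesion protein, had a log2 difference of -0.97 ± 0.080 (adjusted p = 0.00155), at levels of 8.67 and 8.58 (mock) against 7.67 and 7.79 (IL-13) in shSCR cells and 9.26 and 9.21 against 8.30 and 8.11 in shIL13Rα2#2 cells. HPGD, which inactivates prostaglandins, changed by -0.79 ± 0.082 (adjusted p = 0.00625) and PLA2G7, which breaks down platelet-activating factor, by -0.80 ± 0.11. The surface glycoprotein CD24 changed by -0.75 ± 0.088 (adjusted p = 0.0116), at levels of 8.64 and 8.85 (mock) against 7.91 and 8.10 (IL-13) in shSCR cells and 9.32 and 9.11 against 8.45 and 8.44 in shIL13Rα2#2 cells. The Wnt antagonist DKK1 changed by -0.60 ± 0.080, the growth factor TGFB2 by -0.62 ± 0.075 and ceruloplasmin, CP, by -0.80 ± 0.10. C3orf57 (now SPTSSB), a small subunit of serine palmitoyltransferase, changed by -0.87 ± 0.096 (adjusted p = 0.00824). In the RefSeq gene order, several genes that passed lie beside each other: SERPINB13, SERPINB4 and SERPINB3 with no gene between them, LRAT and RBM46 (0.74) with none, and PARP14 and DTX3L (0.47) with 1 between. Of the genes named in these paragraphs ERAP2, PSMB9, PARP14, PLA2G7, DKK1 and DTX3L did not pass in any of the 8 fits with 1 array left out, and HBEGF, CD24, CP, TGFB2 and RBM46 passed in 3, 4, 2, 1 and 1 of them.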
